A study of Mus musculus with 6 samples.

Results

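The genes of cholesterol and fatty acid synthesis were followed in M2c-polarized macrophages from mice without the soluble epoxide hydrolase (sEH). The group was given as a list of 34 symbols that name the enzymes from acetyl-CoA to cholesterol, those that make and desaturate long-chain fatty acids, and the proteins that regulate both routes. All 34 were found by symbol among the 19309 genes of the count table. The list is defined by function and not by a measured value. RNA sequencing libraries were available from 3 sEH-/- and 3 wild-type cultures. The labels number these replicates, and the study describes them as separate mice. The sEH-/- mice carry a constitutive deletion of Ephx2 in the whole animal, made with the Ephx2tm1.1Arte allele and a Cre driven from ROSA26, and the wild-type mice were littermates on the C57BL/6N background, between 8 and 10 weeks old. Cells of both genotypes had the same treatment, so that nothing here compares polarization states: bone marrow monocytes were grown with GM-CSF and M-CSF (both 15 ng/mL), stimulated with IFN-γ (1 ng/mL) together with LPS (10 ng/mL), and finally given TGF-β1 (10 ng/mL), in medium that contained fetal calf serum. Growth with GM-CSF and M-CSF lasted 7 days. The labels give 24 h for the step with IFN-γ and LPS, whereas the methods give 12 h. The labels give 48 h of TGF-β1, whereas the methods allow 24 h or 48 h. According to the methods, cells of female mice were used in most experiments.

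Cholesterol is built from acetyl-CoA through mevalonate, farnesyl diphosphate and squalene, and the ring-closed sterol is then trimmed to cholesterol. Fatty acids are built from the same acetyl-CoA by acetyl-CoA carboxylase and fatty acid synthase, lengthened by elongases and given double bonds by desaturases. Both routes are controlled by the SREBP transcription factors, membrane proteins that SCAP carries from the endoplasmic reticulum to the Golgi for cleavage when sterols are scarce and that INSIG proteins hold back when sterols are plentiful. In macrophages, which take up cholesterol with lipoproteins and dead cells, a load of cholesterol turns synthesis down and LXR-driven export up.

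The libraries held between 4400197 and 6096440 counts. Ephx2 was read at 4, 2 and 1 counts in sEH-/- replicates 1 to 3 and at 26, 49 and 57 counts in wild-type replicates 1 to 3, and edgeR's quasi-likelihood test gave a log2 fold change of -4.05 ± 0.43 (SE) at an adjusted p of 0.0042, so the labels and the deleted gene go together. All 8 macrophage markers looked for were detected, with the summed CPM (a count divided by its TMM-scaled library total and brought to a common depth) between 1848 and 2553 in the 6 libraries. Of 6 dendritic cell markers 5 had a row and 3 were high enough to test, with a summed CPM between 27.5 and 59.3. Of 8 neutrophil markers 6 had a row and only S100a8, a calcium-binding protein abundant in neutrophils, passed the filter. Its log2 fold change was 0.54 and its adjusted p 0.057. The 6 summed to 28.2, 31.8 and 29.6 CPM in sEH-/- and 17.3, 19.6 and 21.1 CPM in wild-type cells, most of it S100a8. S100a8 was higher in every sEH-/- than in any wild-type library, as were 11.8% of all tested genes. Of 6 markers of cycling cells, Mcm5, a replication helicase subunit, was called, with 24.8, 30.6 and 15 CPM in sEH-/- and 10.8, 6.32 and 6.26 CPM in wild-type cells (log2 fold change 1.62 ± 0.29, adjusted p = 0.022), and the other 5 were not. The adjusted p of Mcm5 passed 0.05, up to 0.13, when replicate 2 of either genotype or replicate 3 of the wild-type was left out. The 5 tested stromal, endothelial and adipocyte markers summed to between 13.2 and 35.8 CPM, and 0 were called. The 6 lymphocyte and 4 erythroid markers looked for were not analysed here, so these cells were not checked.

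No enzyme or regulator of the group met the criterion for differential expression, and most had log2 fold changes slightly below 0 in sEH-/- macrophages, with the lowest median among the enzymes that turn squalene into cholesterol. A gene was called at an adjusted p below 0.05 (edgeR quasi-likelihood test with Benjamini-Hochberg adjustment over all tested genes) and a log2 fold change beyond 0.585 in either direction, which is 1.5-fold. Of the 34 members 33 had a mean above 5 counts and were tested, and 0 were called, whereas 2.61% of the 13785 tested genes were called. DESeq2 and limma-voom also called 0 members, beside 3.43% and 2.23% of all tested genes. In edgeR, Tm7sf2, a sterol reductase, was the 1 member with an adjusted p below 0.05 whatever the fold. That level was reached by 4.01% of all tested genes. At an unadjusted p below 0.05 there were 6 members lower and 0 higher in sEH-/- cells, beside 12.2% and 11.1% of all tested genes. In bulk RNA, fewer cells of a type and less RNA per cell cannot be told apart.

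By sign alone, 26 of the 33 tested members had a log2 fold change below 0 and 7 above, and the share below 0 over all tested genes was 50.2%. The median over the members was -0.12 on the log2 scale, against -0.001 over all tested genes, while the median size without sign was 0.159 and 0.157, respectively. The members were thus tilted to one side, but the size of their differences was that of genes at large. Leaving out 1 library turned the sign of 10 members, and with the library total as a covariate 25 members were below 0. Groups did not overlap in 6 members that were lower in every sEH-/- library than in any wild-type library, namely Insig2, Hmgcs1, Lss, Cyp51, Tm7sf2 and Sc5d. Nsdhl was the 1 member higher in every sEH-/- library. Complete separation of the 3 against 3 libraries occurred in 14.5% of all tested genes in the lower and 11.8% in the higher direction. The precision was enough to bound most members: the 95% interval of 22 members stayed within a 1.5-fold change on both sides, and that of 11 reached past it. The median SE of the members was 0.114 on the log2 scale.

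**Figure D1:**
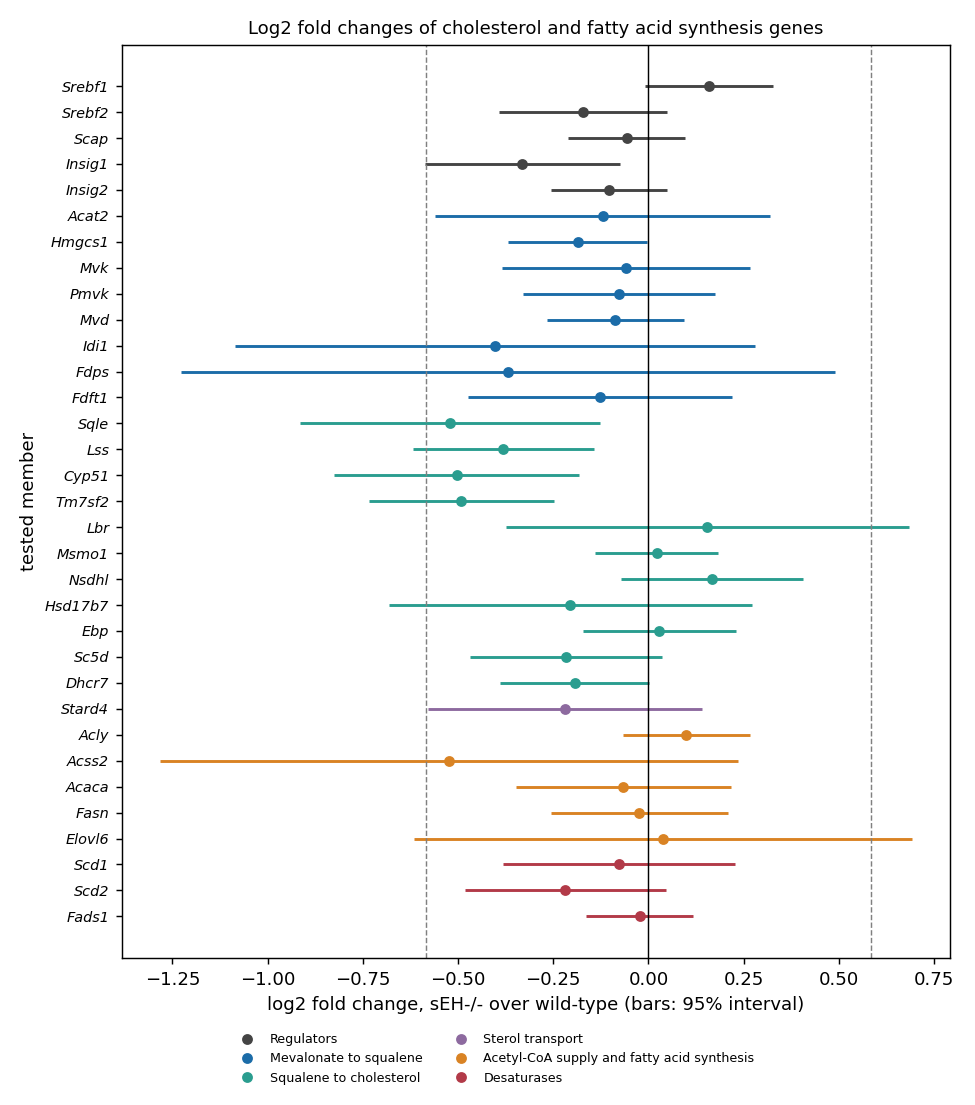
Log2 fold change of sEH-/- over wild-type macrophages (x axis) for the 33 tested members (y axis, ordered and coloured by role), with 95% intervals as bars and the 1.5-fold limits of 0.585 as dashed lines. Of the points, 26 lie left of 0, and the intervals of Insig1, Hmgcs1, Sqle, Lss, Cyp51 and Tm7sf2 lie wholly left of 0.

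The tilt was uneven across the mice. The median log2 ratio of the 33 members to their wild-type mean was -0.05, -0.15 and -0.13 in sEH-/- replicates 1, 2 and 3, and -0.03, 0.04 and -0.03 in wild-type replicates 1, 2 and 3. Among the 11 enzymes from squalene to cholesterol the same medians were -0.04, -0.52 and -0.29 for sEH-/-, against -0.04, 0.05 and -0.02 for wild-type cells. By this median sEH-/- replicate 1 lay at the wild-type level and replicates 2 and 3 below it, but single enzymes departed from it: replicate 1 was below every wild-type library for Tm7sf2, Lss and Cyp51, and for Dhcr7 it was the lowest of all 6 libraries. Replicate 2 was the lowest of the 6 libraries in 15 of the 33 members (45.5%), and in 10 of the 19 sterol enzymes (52.6%), whereas it was the lowest library in 22.9% of all tested genes. Its total of 5013265 counts was neither the smallest nor the largest. Without that library, the median of the members was -0.07.

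Macrophage marker levels also differed between the libraries. The summed CPM of the 8 markers was 2056, 2496 and 2553 for sEH-/- and 2332, 1848 and 1954 for wild-type replicates 1 to 3, so that it was highest in the 2 libraries with the lowest sterol enzymes, and 0 of the 8 markers were called. All 8 markers had a log2 fold change above 0, with a median of 0.163, whereas 50.2% of all tested genes were below 0. At an unadjusted p below 0.05 (edgeR) 2 markers were higher and 0 lower in sEH-/- cells. The shares over all tested genes were 11.1% and 12.2%. In wild-type replicate 2 all 8 markers were at their lowest. The part of these marker levels in the sterol values was not tested. The 19 sterol enzymes together gave 839, 739 and 801 CPM in the sEH-/- libraries and 873, 916 and 912 CPM in the wild-type libraries. These sums did not overlap between the genotypes, with 839 and 873 CPM the nearest values. Of all tested genes 14.5% were likewise separated in this direction, and no such share was taken for sums. The sums of the 9 fatty acid enzymes overlapped, at 841, 805 and 938 CPM in sEH-/- and 935, 936 and 858 CPM in wild-type cells.

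**Figure D2:**
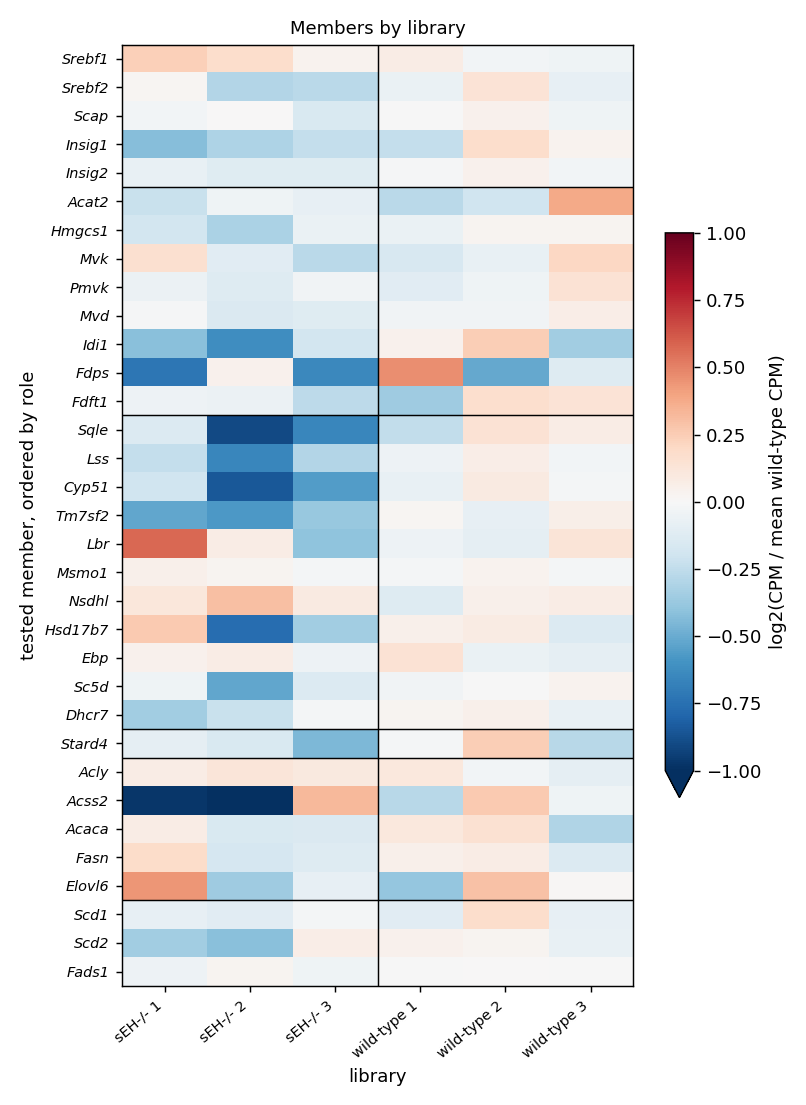
Log2 ratio of each library's CPM to the mean wild-type CPM (colour, blue lower and red higher) for the 33 tested members (rows, ordered by role, with lines between roles) in the 6 libraries (columns, the vertical line separates the genotypes). Sqle, Lss, Cyp51 and Hsd17b7 are bluest in sEH-/- replicate 2, and Acss2 is bluest in sEH-/- replicates 1 and 2.

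Promoters of the members were searched for sequence features that the choice of genes did not use. RefSeq (GRCm38.p6) gave the bases from 250 before to 50 after the start for 27 of the 34 members (35 promoters). The CCAAT box, searched by these letters on both strands, is bound by NF-Y, a factor that works beside SREBP at many lipid genes, and at least 1 was present in 23 of these promoters (65.7%) and in 37.4% of all 32851 promoters of the table. The Sp1 box GGGCGG, likewise on both strands, was present in 77.1% and 35.7%, respectively. Sterol response elements were searched with the letters TCACNCCAC on both strands, and the single member promoter that held them belonged to Hmgcs1 (2.86%, against 1.24% of all promoters). The E-box CACGTG, which SREBP can also bind, was present in 17.1% of member promoters and 7.15% of all. By gene, it was present in 5 of the 27 members, as promoters of Scap overlap and share the same box. The promoters of all genes were not matched to those of the members in base composition or expression. A promoter counted once per motif, also where matches overlapped. These are matches of letters only, and the RNA counts do not measure binding at any of them.

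The stretches below were chosen because they lie before 4 of the 6 members with the smallest unadjusted p. Each begins 220 bases before the RefSeq start and ends before that start or before the first exon in GENCODE M21, whichever comes first, is written 5′ to 3′ on the gene's own strand, and has CCAAT boxes and the sterol response element in capitals.
Hmgcs1, chr13:119690131-119690350, + strand: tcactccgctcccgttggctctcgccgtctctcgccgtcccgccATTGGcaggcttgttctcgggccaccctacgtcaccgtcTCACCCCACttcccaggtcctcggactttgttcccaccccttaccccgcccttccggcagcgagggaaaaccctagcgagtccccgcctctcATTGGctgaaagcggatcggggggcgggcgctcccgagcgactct
Lss, chr10:76531385-76531587, + strand: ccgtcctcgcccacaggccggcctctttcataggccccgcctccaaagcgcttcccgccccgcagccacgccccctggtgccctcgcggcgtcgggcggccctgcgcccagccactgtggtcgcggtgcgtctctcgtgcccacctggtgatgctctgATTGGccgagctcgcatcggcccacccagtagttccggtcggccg
Insig1, chr5:28071192-28071362, + strand: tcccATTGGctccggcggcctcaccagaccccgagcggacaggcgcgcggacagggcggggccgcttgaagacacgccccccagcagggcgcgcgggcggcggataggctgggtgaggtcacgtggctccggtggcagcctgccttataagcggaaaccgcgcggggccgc
Cyp51, chr5:4104747-4104917, - strand: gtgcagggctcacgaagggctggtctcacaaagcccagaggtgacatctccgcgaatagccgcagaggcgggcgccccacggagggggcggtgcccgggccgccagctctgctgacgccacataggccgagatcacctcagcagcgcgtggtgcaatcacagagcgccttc
Hmgcs1 has its sterol response element, TCACCCCAC, between 2 CCAAT boxes, both read as ATTGG, while the stretches of Lss and Insig1 hold 1 box each. The box of Cyp51 starts 29 bases before its RefSeq start, inside the first exon of the GENCODE model, so its stretch shows no capitals.

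Of the 5 regulators 4 were below 0 and 0 were called, and Insig1 had the largest difference. Srebf1, which encodes the SREBP-1 factors that favour fatty acid genes, was read at 132, 126 and 115 CPM in the sEH-/- libraries and at 117, 109 and 108 CPM in the wild-type libraries. Only sEH-/- replicate 3 and wild-type replicate 1 overlapped, and the sEH-/- level was on average the higher. Its log2 fold change was 0.16 ± 0.08 (SE), with a 95% interval from -0.01 to 0.33 and an adjusted p of 0.24. Srebf2, which encodes the SREBP-2 factor that favours sterol genes, gave 137, 111 and 112 CPM in sEH-/- and 129, 149 and 128 CPM in wild-type cells. Here sEH-/- replicate 1 lay within the wild-type range and replicates 2 and 3 below it. For Srebf2 the log2 fold change was -0.17 ± 0.10 and the adjusted p 0.33.

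Scap, the escort protein of the SREBPs, gave 113, 116 and 104 CPM in sEH-/- and 115, 119 and 112 CPM in wild-type cells. The genotypes overlapped, and the log2 fold change was -0.06 ± 0.07 (adjusted p = 0.67). For Insig1, an anchor of the SCAP-SREBP complex that is itself an SREBP target and therefore a common readout of the pathway, the sEH-/- libraries had 40.5, 43.7 and 46.1 CPM and the wild-type libraries 45.9, 61.4 and 55.5 CPM. Wild-type replicate 1 was at the sEH-/- level and the other wild-type libraries were above it. Its log2 fold change was -0.33 ± 0.12, with a 95% interval from -0.59 to -0.07 and an adjusted p of 0.12. Insig2, the anchor that does not need SREBP for its own expression, had 80.8, 78.2 and 78.0 CPM in sEH-/- and 84.0, 87.3 and 83.4 CPM in wild-type cells. All sEH-/- libraries were below all wild-type libraries by a narrow margin, the log2 fold change was -0.10 ± 0.07, and the adjusted p was 0.40.

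The 8 enzymes from acetyl-CoA to squalene all had log2 fold changes below 0, between -0.40 and -0.06 with a median of -0.12, and 0 were called. The signs of Acat2, Mvk and Pmvk turned when single libraries were left out, to at most 0.12. Hmgcs1, the cytosolic HMG-CoA synthase that makes the precursor of mevalonate, was at 76.7, 69.9 and 83.1 CPM in sEH-/- and at 83.2, 88.8 and 88.7 CPM in wild-type cells. The highest sEH-/- and the lowest wild-type library were nearly level and the rest were apart. Its log2 fold change was -0.19 ± 0.08 (95% interval -0.37 to -0.004, adjusted p = 0.21). Mvd, which decarboxylates mevalonate diphosphate to isopentenyl diphosphate, had 60.3, 55.0 and 55.8 CPM in sEH-/- and 59.2, 59.3 and 63.3 CPM in wild-type cells. With sEH-/- replicate 1 inside the wild-type range, the log2 fold change was -0.09 ± 0.08 (adjusted p = 0.57).

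The other enzymes of this stretch had wider intervals. Mvk and Pmvk, the kinases that phosphorylate mevalonate in turn, had log2 fold changes of -0.06 and -0.08. Those of Acat2, the acetyl-CoA acetyltransferase at the head of the route, and of Fdft1, the squalene synthase, were -0.12 and -0.13. Idi1, the isopentenyl diphosphate isomerase, and Fdps, the farnesyl diphosphate synthase, had the largest values of the 8, -0.40 ± 0.31 and -0.37 ± 0.39. Idi1 rested on 15, 11 and 13 counts in the sEH-/- and 16, 25 and 15 counts in the wild-type libraries. Fdps had 9, 13 and 7 counts against 16, 11 and 13. At these counts a 1.5-fold difference of either gene was not detectable. The counts of some of these genes are uncertain, since multi-mapping reads and reads over several genes were discarded. Of the 50-base windows of Acat2 39.1%, and of those of Idi1 25.3%, occurred in transcripts of other genes, on either strand. For Fdps 26.7% of the exonic bases overlap another gene on the same strand. For Fdft1 18.3% and for Idi1 9.22% overlap one on the opposite strand, which counting by strand keeps apart. The share of windows given for Idi1 can include such bases and so overstate the loss.

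Of the 11 enzymes from squalene to cholesterol 7 were below 0 and 4 above, with a median of -0.20 and 0 called. The 4 lowest were Sqle, Cyp51, Tm7sf2 and Lss, which catalyse the steps from squalene to the first demethylated and reduced sterols. Tm7sf2, a sterol Δ14-reductase on chromosome 19 (6062821 to 6068373, minus strand, GRCm38), had 26.1, 25.2 and 28.9 CPM in sEH-/- and 38.0, 35.5 and 39.2 CPM in wild-type cells. The genotypes were well apart and the libraries of each lay close together. The log2 fold change was -0.49 ± 0.11 (95% interval -0.73 to -0.25, adjusted p = 0.041), which is a level 28.8% lower but does not reach the 1.5-fold limit. Leaving out each library in turn gave values between -0.54 and -0.43, and over the 15 alternative settings that refitted this gene the adjusted p ranged from 0.028 to 0.18 and was below 0.05 in 8. The adjusted p was 0.065 with DESeq2, the tool the study used, and 0.044 with limma-voom. In edgeR it was 0.053 with the library total as a covariate and 0.087 with the replicate block. The exons of Tm7sf2 share 12.1% of their bases on the same strand with Vps51, and reads over several genes were not counted.

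Lss, the lanosterol synthase that closes the rings (chromosome 10, 76531588 to 76557138, plus strand), was read at 63.5, 47.7 and 61.1 CPM in the sEH-/- libraries and at 72.4, 78.6 and 73.5 CPM in the wild-type libraries. Every sEH-/- library was below every wild-type library, with replicate 2 the lowest. Its log2 fold change was -0.38 ± 0.11 (95% interval -0.62 to -0.14, adjusted p = 0.068). Cyp51, the lanosterol demethylase (chromosome 5, 4081145 to 4104746, minus strand), had 44.6, 28.4 and 34.7 CPM in sEH-/- and 48.5, 54.4 and 50.5 CPM in wild-type cells. Here too all sEH-/- libraries were below all wild-type libraries, with replicate 1 close to the wild-type level and replicate 2 lowest. The log2 fold change of Cyp51 was -0.50 ± 0.15 (95% interval -0.83 to -0.18, adjusted p = 0.073). Sqle, the squalene epoxidase at a rate-limiting step of the route (chromosome 15, 59315077 to 59331192, plus strand), had 50.4, 29.6 and 35.2 CPM in sEH-/- and 46.5, 61.2 and 58.2 CPM in wild-type cells. The sEH-/- libraries had the same order as for Cyp51, but replicate 1 exceeded wild-type replicate 1, so the genotypes overlapped. For Sqle the log2 fold change was -0.52 ± 0.18 (95% interval -0.91 to -0.13, adjusted p = 0.11).

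The call for Sqle and Cyp51 depended on sEH-/- replicate 1. Without it, the log2 fold change of Sqle was -0.78 (adjusted p = 0.022) and that of Cyp51 was -0.70 (adjusted p = 0.020), and both met the criterion. No other left-out library gave a call for either gene, and over the 15 alternatives the adjusted p ranged from 0.022 to 0.37 for Sqle and from 0.020 to 0.28 for Cyp51.

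**Figure D3:**
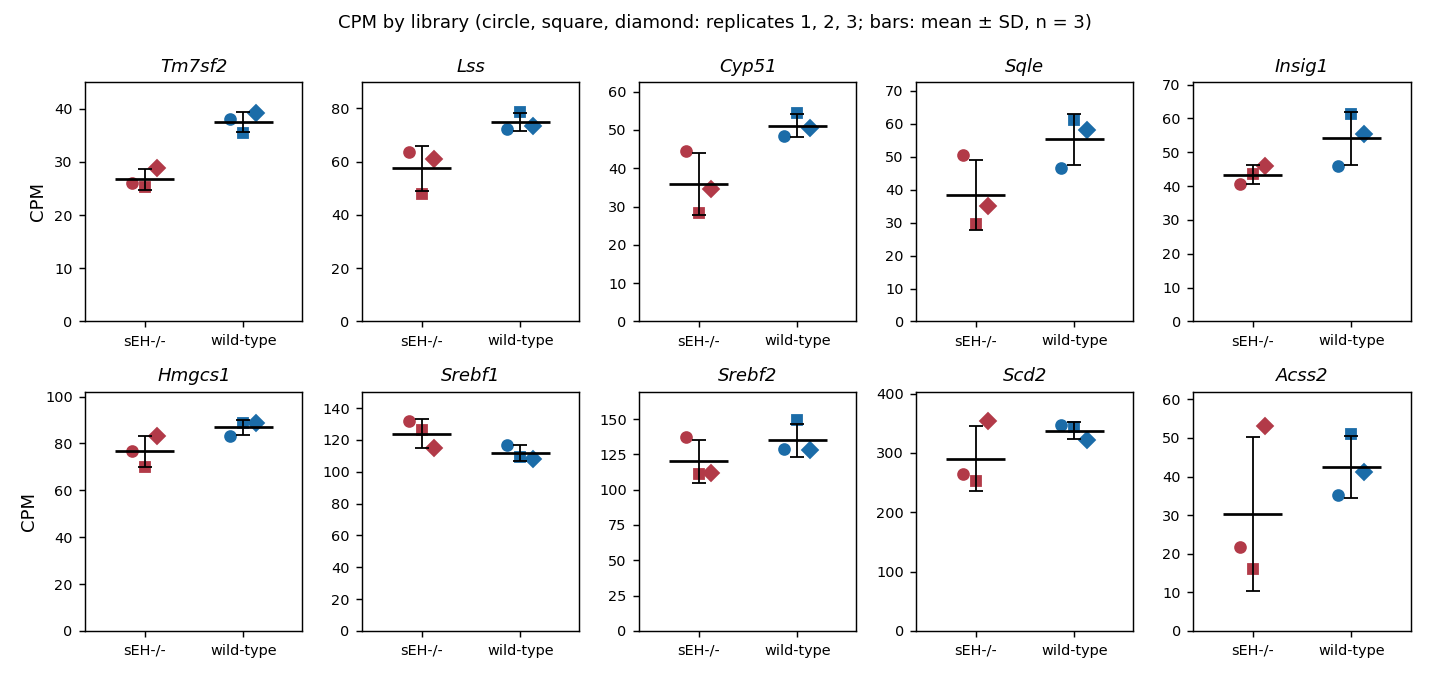
CPM (y axis, from 0) of 10 members in the 3 sEH-/- (red) and 3 wild-type (blue) libraries, with replicates 1, 2 and 3 as circle, square and diamond, and the mean ± SD (n = 3) as bars. Tm7sf2, Lss, Cyp51 and Hmgcs1 do not overlap between the genotypes, sEH-/- replicate 1 (circle) is the highest sEH-/- library for Sqle, Cyp51 and Lss, and Acss2 spans 16.1 to 53.2 CPM within the sEH-/- group.

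The other enzymes of the sterol route differed among themselves in direction. Msmo1, the C4-methylsterol oxidase, had between 66.0 and 69.3 CPM in all 6 libraries and a log2 fold change of 0.02 ± 0.07, with a 95% interval from -0.14 to 0.18. Ebp, the sterol isomerase, was at 0.03 ± 0.09 and Nsdhl, the dehydrogenase of the C4 demethylation, at 0.17 ± 0.11 (adjusted p = 0.39). Nsdhl had 37.6, 42.7 and 37.0 CPM in sEH-/- and 31.8, 36.0 and 36.5 CPM in wild-type cells, with all sEH-/- libraries above all wild-type libraries. Lbr, a nuclear envelope protein that is also a Δ14-reductase and thus catalyses the same step as Tm7sf2, had a log2 fold change of 0.15 ± 0.24, with a 95% interval from -0.37 to 0.68, and its sign turned when sEH-/- replicate 1 was left out (-0.14). Hsd17b7, the ketoreductase of the C4 demethylation, was at -0.20 ± 0.21. The last enzymes of the route, the desaturase Sc5d and the reductase Dhcr7, were at -0.22 ± 0.11 and -0.19 ± 0.09. Sc5d had 69.7, 50 and 65.3 CPM in sEH-/- and 69.8, 71.6 and 73.5 CPM in wild-type cells, again with replicate 2 the lowest. Hsd17b7 varied widely within the sEH-/- libraries, in the same order as Sqle and Cyp51, with 38.1, 18.7 and 25.0 CPM against 32.9, 33.5 and 28.8 CPM in wild-type cells. Stard4, a carrier that moves cholesterol between membranes, had a log2 fold change of -0.22 ± 0.16 (adjusted p = 0.46).

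Of the 5 enzymes that supply acetyl-CoA and make fatty acids 3 were below 0, the median was -0.02 and 0 were called, although Acss2 had the largest difference of all members. Acly, the ATP-citrate lyase that makes cytosolic acetyl-CoA from citrate, had 262, 270.3 and 266 CPM in sEH-/- and 268, 244 and 234 CPM in wild-type cells. The sEH-/- values lay close together within the wild-type range or just above it. Acly had a log2 fold change of 0.10 ± 0.08 (95% interval -0.07 to 0.27, adjusted p = 0.47). Fasn, the fatty acid synthase, was at -0.02 ± 0.10, with a 95% interval from -0.26 to 0.21. Acaca, the acetyl-CoA carboxylase that commits acetyl-CoA to fatty acids, was at -0.07 ± 0.13. Of its 50-base windows 30.4% occurred in transcripts of other genes, on either strand. Elovl6, the elongase of palmitate, had at most 41 counts in a library and a log2 fold change of 0.04 ± 0.29.

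Acss2, which makes acetyl-CoA from acetate, had the largest log2 fold change of all members, -0.52, and also the largest spread of the 4 members near that value (SE 0.34, 95% interval -1.28 to 0.24, adjusted p = 0.40). It was read at 21.7, 16.1 and 53.2 CPM in the sEH-/- libraries and at 35.1, 51.0 and 41.3 CPM in the wild-type libraries. Replicate 3 of the sEH-/- libraries was the highest of all 6, and replicates 1 and 2 were the lowest. Without that replicate the log2 fold change was -1.16 (adjusted p = 0.015) and Acss2 was called. Within the sEH-/- libraries the 3 tested dendritic cell markers were, like Acss2, highest in replicate 3. The order of replicates 1 and 2 was not that of Acss2 for Clec9a. Among the wild-type libraries Acss2 and these 3 markers had the same order, from replicate 2 as the highest to replicate 1 as the lowest. Clec9a, a receptor for dead cells on cross-presenting dendritic cells, was at 16.4, 23.4 and 42.6 CPM in sEH-/- and at 30.3, 37.6 and 32.2 CPM in wild-type cells. Zbtb46, a transcription factor of conventional dendritic cells, was at 5.29, 3.22 and 9.26 CPM against 9.22, 14.6 and 10.6 CPM. Ccr7, the remaining tested marker, was at 4.78, 2.22 and 5.32 CPM against 2.41, 6.48 and 3.94 CPM, with sEH-/- replicate 1 close to replicate 3. The dendritic cell list summed to 27.5, 29.2 and 58.3 CPM in sEH-/- cells, against 42.1, 59.3 and 47.6 CPM in wild-type cells, while Xcr1 and Dpp4 stayed below 1 CPM in each library. The part of these cells in the Acss2 values was not tested.

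The 3 tested desaturases were all below 0, with a median log2 fold change of -0.08, and 0 were called. Scd1 turned to 0.02 with 1 library left out. Scd2, the stearoyl-CoA desaturase with the most counts of all members, had 264, 253 and 354 CPM in sEH-/- and 347, 344 and 321 CPM in wild-type cells. The sEH-/- replicates 1 and 2 were below all wild-type libraries and replicate 3 was above them, so the genotypes overlapped. The log2 fold change was -0.22 ± 0.12 (95% interval -0.48 to 0.05, adjusted p = 0.30). Without sEH-/- replicate 3 it reached -0.37, with an adjusted p of 0.039 and still short of the 1.5-fold limit. Scd1, its close relative, was at -0.08 ± 0.14. Fads1, the Δ5-desaturase of polyunsaturated fatty acids, had between 113 and 118 CPM in all 6 libraries and a log2 fold change of -0.02 ± 0.06 (95% interval -0.16 to 0.12). The Δ6-desaturase Fads2 had 6, 2 and 1 counts in the sEH-/- and 3, 4 and 1 counts in the wild-type libraries and was too low to test.

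Per exonic length, the desaturase Scd2 and the lyase Acly were the most abundant members, and sterol enzymes spread over a wide range below them. In wild-type cells, Scd2 was at 61.7 ± 2.61 and Acly at 47.1 ± 3.33 CPM per kilobase of exon (SD, n = 3), followed by Mvd at 32.6 ± 1.27. Ebp (25.8 ± 2.41), Dhcr7 (25.2 ± 1.15), Insig2 (24.4 ± 0.60) and Fads1 (24.2 ± 0.06) came next, and neighbours among these 4 differed by less than the larger SD of the pair. The regulators Srebf1 (19.8 ± 0.90) and Srebf2 (18.8 ± 1.64) were near to each other and within a factor of 1.5 of Scap (15.5 ± 0.47). In sEH-/- cells, the levels of Scd2 (53.1 ± 10.1) and Acly (50.5 ± 0.74) were no longer apart beyond their SD. Fdps (0.60 ± 0.21) and Fads2 (0.15 ± 0.08) were the lowest in wild-type cells. Exon lengths are those of all annotated transcripts joined, so members with long rare exons appear lower.

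**Figure D4:**
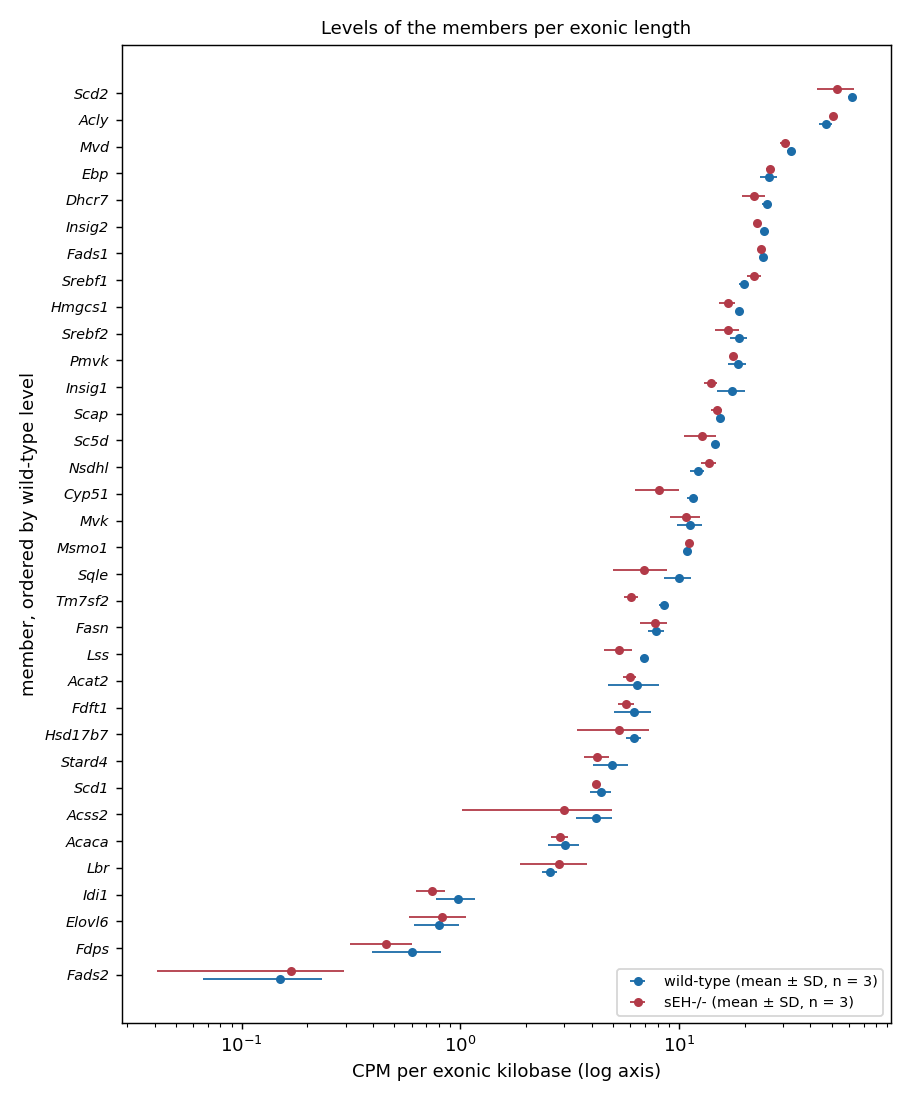
Mean CPM per exonic kilobase ± SD (x axis, log scale, n = 3) of the 34 members (y axis, ordered by wild-type level) in wild-type (blue) and sEH-/- (red) macrophages. Levels run from 61.7 for Scd2 to 0.15 for Fads2 in wild-type cells, and the difference between genotypes is small beside this range.

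Genes around the pathway gave 2 calls, both in triglyceride synthesis. Of 20 tested enzymes of fatty acid and triglyceride metabolism outside the group 1 was higher and 1 lower in sEH-/- cells, beside 1.51% and 1.1% of all tested genes. Dgat2, which adds the last acyl chain to triglycerides, had 14.9, 9.67 and 10.4 CPM in sEH-/- and 3.73, 4.05 and 4.29 CPM in wild-type cells. The genotypes were far apart, and the log2 fold change was 1.53 ± 0.25 (adjusted p = 0.018). Lpin1, a phosphatidate phosphatase and SREBP target, had 49.5, 48.9 and 58.3 CPM in sEH-/- and 65.0, 97.5 and 79.8 CPM in wild-type cells. All sEH-/- libraries were below all wild-type libraries, with a log2 fold change of -0.64 ± 0.14 (adjusted p = 0.036). The adjusted p of Dgat2 passed 0.05 without wild-type replicate 2 or 3, up to 0.12, but leaving out any single library kept its log2 fold change at 1.31 to 1.67, and in these 2 settings only 25 and 6 genes were called in all. The adjusted p of Lpin1 passed 0.05 without sEH-/- replicate 1 or 2 or wild-type replicate 2 or 3 and with the library total as a covariate, up to 0.16.

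In the remaining sterol and lipid lists edgeR called 0 genes. Of 10 further genes of SREBP processing and sterol sensing 6 were above and 4 below 0. At an unadjusted p below 0.05 there were 4 higher and 2 lower. Over all tested genes 11.1% were higher and 12.2% lower at that level, and 50.2% were below 0. The same shares apply to the lists that follow. Ubxn8, which binds the ER degradation machinery, was at 0.50 ± 0.15 (adjusted p = 0.073, and called without sEH-/- replicate 3 at 0.014), and Erlin1, an ER protein that restrains SREBP, at 0.39 ± 0.11 (adjusted p = 0.074). Tmem97, the sigma-2 receptor and a known SREBP target, was at -0.36 ± 0.11 (adjusted p = 0.081). All 9 genes of the isoprenoid branches were within 0.203 of 0 on the log2 scale, with 7 below and 0 at an unadjusted p below 0.05. Of 3 tested oxysterol enzymes, Ch25h, which makes the SREBP inhibitor 25-hydroxycholesterol, had 12.6, 19.3 and 9.95 CPM in sEH-/- and 7.9, 5.51 and 7.51 CPM in wild-type cells. Every sEH-/- library was above every wild-type library, and the log2 fold change of 1.02 ± 0.27 had an adjusted p of 0.063, with a range from 0.029 to 0.27 over the 15 alternatives and a call in 3, DESeq2 among them. Of 13 LXR-linked genes of export, storage and efflux 9 were above and 4 below 0, and Abca1 was the 1 with an unadjusted p below 0.05. Abca1, the cholesterol exporter, was at 891, 991 and 1005 CPM in sEH-/- and at 923, 703 and 621 CPM in wild-type cells, with wild-type replicate 1 at the sEH-/- level and a log2 fold change of 0.36 ± 0.14 (adjusted p = 0.15).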

How the data were processed

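Bulk RNA of 3 sEH-/- and 3 wild-type M2c macrophage libraries was analysed. The authors deposited raw counts per gene: according to the labels, reads were trimmed with Trimmomatic 0.39, aligned to mm10 with STAR 2.7.7a, cleared of mitochondrial, ribosomal and multi-mapping reads and of duplicates (Picard 2.21.7), and assigned to exons on the correct strand with featureCounts 1.6.5, without reads over several genes. Discarding duplicates and multi-mapping reads lowers the counts of abundant genes and of genes with near copies. Averaged over the 6 libraries, members reached at most 0.3 counts per exonic base (Scd2), and counts corrected for such a ceiling were an alternative. With that correction the log2 fold change of Scd2 was -0.28 instead of -0.22, and it was not called. Labels and methods differ on tool versions, kit and times.

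Counts were fitted in R 4.3.3 with edgeR 4.0.16 (TMM factors 0.982 to 1.03, quasi-likelihood test, no covariate, 13785 genes with a mean above 5 counts, holding 99.8% of all counts). Each SE was taken as the size of the log2 value over the root of its F statistic. The common biological coefficient of variation was 0.0866. Library totals lay between 4400197 and 6096440 counts. DESeq2 1.42.0, limma 3.58.1 (voom), other scalings and filters, a replicate block, the library total as a covariate, each library left out and other thresholds were alternatives. No libraries of a genotype differed by as little as sampling noise, as the chi-square per gene lay between 2.24 and 4.89. Exons came from GENCODE M21 (19286 of 19309 identifiers found), promoters from RefSeq.

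The members and lists were chosen with earlier results of these data known. Library values are given for members with an adjusted p below 0.05, the 5 SREBP regulators, the 6 members with the smallest unadjusted p, the 3 with the highest level per exonic kilobase, and, in the other lists, called genes and at most 3 with the smallest p. Values of Acss2, Nsdhl, Hsd17b7, Sc5d, Idi1, Fdps, Fads2 and Abca1 and of the dendritic cell markers were added after they were seen. The p-values set each genotype difference against the spread between these libraries, 3 per genotype, which edgeR estimates with information shared across genes. Figures were drawn with matplotlib 3.10.9.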

Additional observations from a re-analysis of the deposited data

How the results depend on the processing

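The member count stayed at 0 under DESeq2, limma-voom, other scalings and filters, the covariate, the ceiling correction and a test against the threshold (glmTreat). It was 0 to 2 when each library was left out in turn (2 without sEH-/- replicate 1, namely Sqle and Cyp51, and 1 without sEH-/- replicate 3, Acss2) and 1 with no fold threshold (Tm7sf2, -0.49). Without sEH-/- replicate 1, Cyp51 was at -0.70 and Sqle at -0.78. Members below 0 numbered 24 to 28 with each library left out, and their median was between -0.16 and -0.07. With each library left out, Ephx2 stayed between -4.53 and -3.79. Of 221 alternative values of the 13 members named by rule 218 kept their call and direction and 0 reversed. With glmTreat and with no fold threshold the log2 values were those of the main fit, so the direction could not change there. As 0 members were called in the main fit, settings that called few genes could hardly change a call. Among all 33 tested members, 10 changed sign with 1 library left out.

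The call count over all genes, 360, was far less stable: 171 with the library total as a covariate, 10 with glmTreat, 553 with no fold threshold and 6 to 625 with each library left out (96 and 570 for sEH-/- replicates 2 and 3, and 625, 25 and 6 for wild-type replicates 1, 2 and 3). The cause was not tested. The labels do not say whether replicate numbers pair the libraries. The deviations of same-numbered libraries from their group means correlated at -0.101, -0.295 and -0.0423, and those of other pairs at -0.0822 to 0.191. Because the deviations within a genotype sum to 0, these correlations cannot decide whether libraries were paired. With the replicate block, 0 members and 234 of all genes were called and the member median was -0.10. Depth limited Idi1, Fdps, Elovl6 and Fads2 most.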
